A study of Arabidopsis thaliana with 12 samples.

Results

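PSAN, LHB1B2, PSBW and PSBY are nuclear genes for parts of the photosynthetic machinery: a photosystem I subunit, a light-harvesting protein and 2 small photosystem II subunits. They were the members of a named set of photosystem subunit and antenna genes, and each was taken from the probe whose platform annotation lists that gene alone. All 4 were found, among 691 genes that have such a probe. Total RNA of Arabidopsis thaliana had been measured on arrays in 6 samples of the psae2 mutant and 6 samples of the wild type (WT), both in ecotype Columbia 0. The psae2 plants are described as without PSI-E2, a photosystem I protein. Allele, tissue, age and growth conditions are not stated in the labels used here. Nothing says that the samples of a group came from separate plants, so p-values measure only the spread between samples, which may be technical.

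Photosystem II takes electrons from water and passes them through the thylakoid membrane, and photosystem I lifts them to ferredoxin on the stromal side. Each photosystem is a core of plastid-encoded proteins surrounded by small nuclear-encoded subunits and by antenna proteins that bind chlorophyll and deliver light energy. PSI-E, the subunit of which PSI-E2 is a form, sits on the stromal face of photosystem I, takes part in docking ferredoxin and is encoded by a pair of genes, PSAE1 and PSAE2, so psae2 still carries the other gene.

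Samples carry a number from 1 to 6 in each group. Samples of the same number deviated from their group means together (correlations over all entries of 0.345 to 0.535 at 6 of 6 numbers), and within a group the samples numbered 1 and 2 were alike, as were those numbered 3 and 4 or 5 and 6 (0.238 to 0.708). What a number stands for is not given. Values are therefore shown by number and by pair of numbers, and each test is given over 12 samples and with pairs averaged (3 values per group). The deposited intensities of an array, on a linear scale, had sums of 2972 to 3610. Precision is limited by the number of arrays. The median of an array was 0.346 to 0.448 in psae2 and 0.304 to 0.379 in the WT, so normalized levels, which are log2 intensities after quantile normalization, are given beside the deposited values. Neither PSAE1 nor PSAE2 has a probe of its own here, so whether the mutant samples lack the targeted transcript was not tested.

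The 4 probes were bright on every array. All 4 lay above the detection floor on 12 of 12 arrays, the floor being the 5th percentile of all values above 0 on that array, and by at least 25.0 times. PSBW ranked between the 10th and the 13th of 3439 probes, LHB1B2 between the 23rd and the 39th, PSAN between the 75th and the 107th, and PSBY between the 141st and the 204th. Among the 692 probes that list 1 gene, PSBW was the 2nd or 3rd brightest on every array, LHB1B2 the 6th to 8th, PSAN the 14th to 22nd and PSBY the 26th to 46th. A rank places the signal of a probe and not the abundance of its transcript, since probes differ in how strongly they bind.

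PSAN (AT5G64040) encodes PSI-N, a peripheral subunit on the lumenal side of photosystem I, where plastocyanin delivers electrons. Its deposited intensity had a lowest value of 3.63, a median of 4.13 and a highest value of 6.004 in psae2, against 3.34, 4.29 and 5.25 in the WT. In both groups the highest values were those of numbers 3 and 4 and the lowest that of number 5, and the groups overlapped. The normalized level averaged 2.12 ± 0.25 in psae2 and 2.11 ± 0.24 in the WT (SD of pair means, n = 3 each). The log2 difference, psae2 minus WT, was 0.01, with a 95% confidence interval of -0.27 to 0.28 over 12 samples and -0.43 to 0.45 with pairs averaged (limma, adjusted p = 0.970 and 0.986). The wider interval includes changes of up to 1.37-fold upward, so small changes in either direction are not excluded. Samples of the same number were close after normalization: their differences ran from -0.01 to 0.03.

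**Figure D1:**
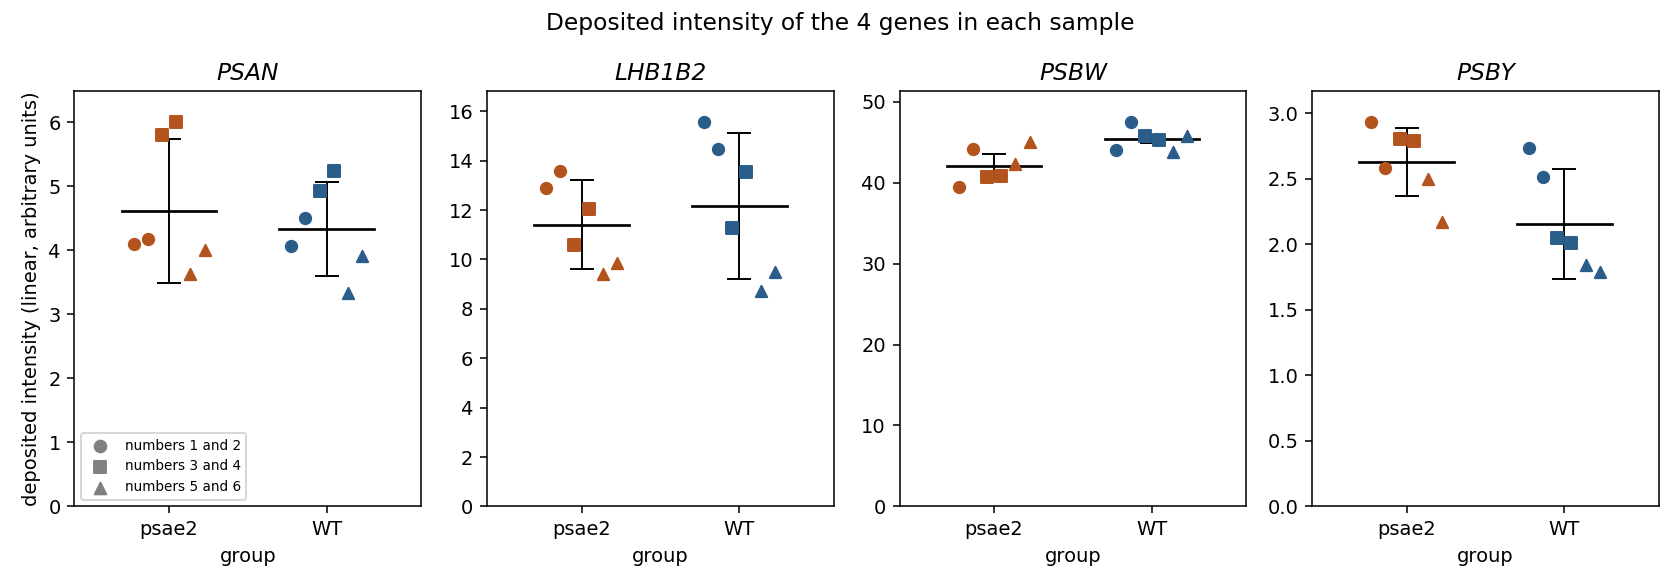
Deposited intensity (linear scale, arbitrary units) of PSAN, LHB1B2, PSBW and PSBY in each psae2 sample (left) and each WT sample (right) of a panel. Marker shapes are pairs of sample numbers, and bars are the mean of the group with the SD of its 3 pair means. The groups overlap in all 4 panels, PSAN is highest at numbers 3 and 4 in both groups, and 4 of 6 psae2 samples of PSBW lie below the lowest WT sample.

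LHB1B2 (AT2G34420), also known as LHCB1.5, encodes an Lhcb1 protein of the major trimeric antenna of photosystem II. Its deposited intensity was at least 9.40, at the median 11.3 and at most 13.6 in psae2, against 8.73, 12.4 and 15.6 in the WT. Numbers 1 and 2 were bright and numbers 5 and 6 dim in both groups. In these intensities the psae2 values lay inside the WT range, while after normalization 3 of 6 psae2 samples lay below the lowest WT sample. The normalized level averaged 3.46 ± 0.13 in psae2 and 3.64 ± 0.18 in the WT (SD of pair means, n = 3 each), a log2 difference of -0.18. Over 12 samples the 95% interval was -0.39 to 0.03, and with pairs averaged it was -0.52 to 0.15 (limma, adjusted p = 0.204 and 0.527). With a block for the replicate number the adjusted p in limma was 0.0407, and with averaged pairs as the block it was 0.282. Lhcb1 is encoded by several closely related genes, and LHB1B1 (AT2G34430), the next gene in the annotation, is listed for 0 probes. How much signal the related genes give to this probe was not tested.

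PSBW (AT2G30570) encodes PsbW, a small membrane-spanning subunit of photosystem II that helps to hold the outer antenna to the core. Its deposited intensity had a lowest value of 39.4, a median of 41.5 and a highest value of 45.1 in psae2, against 43.8, 45.5 and 47.5 in the WT. The psae2 sample was the dimmer at 6 of 6 numbers, and 4 of 6 psae2 samples lay below the lowest WT sample, while psae2 samples 2 and 6 lay within the WT range. The normalized level averaged 5.35 ± 0.06 in psae2 and 5.52 ± 0.09 in the WT (SD of pair means, n = 3 each), a log2 difference of -0.17. The 95% interval was -0.30 to -0.04 over 12 samples and -0.43 to 0.09 with pairs averaged (limma, adjusted p = 0.0644 and 0.447). With a block for the replicate number the adjusted p in limma was 0.0460, with averaged pairs as the block 0.322, and with the replicate number as block on deposited values 0.126. At this brightness quantile normalization replaces the intensity by the mean of the arrays at the same rank, so the 12 samples of PSBW took only 4 distinct levels, for the 10th to the 13th place. The mean rank was 12.7 in psae2 and 10.8 in the WT.

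PSBY (AT1G67740) encodes a precursor of PsbY, small membrane-spanning proteins found beside cytochrome b559 in photosystem II. Its deposited intensity had a lowest value of 2.17, a median of 2.68 and a highest value of 2.93 in psae2, against 1.79, 2.03 and 2.73 in the WT. The psae2 sample was the brighter at 6 of 6 numbers, but WT samples 1 and 2 reached the psae2 range. The normalized level averaged 1.33 ± 0.11 in psae2 and 1.14 ± 0.15 in the WT (SD of pair means, n = 3 each), a log2 difference of 0.19, or 1.14-fold. The 95% interval was 0.005 to 0.38 over 12 samples and -0.12 to 0.50 with pairs averaged (limma, adjusted p = 0.132 and 0.474). With a block for the replicate number the adjusted p in limma was 0.0596, and with averaged pairs as the block it was 0.306.

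None of the 4 genes passed an adjusted p of 0.05 in limma over 12 samples, where 22.3% of 3009 entries did, and 0 of 4 passed with pairs averaged, where 2.63% did. At an unadjusted p under 0.05 there were 2 of 4 over 12 samples (PSBW and PSBY), against 35.7% of all entries. With pairs averaged there were 0 of 4, against 19.1%, and with a block for the replicate number 3 of 4 (LHB1B2, PSBW and PSBY), against 44.8%. At the adjusted threshold 2 of 4 passed with the block for the replicate number (LHB1B2 and PSBW), where 33.6% of entries did. With averaged pairs as the block 0 of 4 did, where 1.46% of entries did. The groups of 6 did not overlap for 0 of 4 genes, whereas psae2 lay wholly below the WT for 5.88% of entries and wholly above it for 6.55%. The median log2 difference was -0.08 over the 4 genes and 0.013 over all entries. The median size of the difference, sign aside, was 0.18 for the 4 genes and 0.21 for all entries. Among the 164 entries with a mean level at least that of PSBY, 38.4% passed over 12 samples and 3.05% with pairs averaged, and the median size of the difference was 0.24. In bulk RNA such as this, fewer cells of a type and less RNA per cell cannot be told apart.

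The same direction at all 6 numbers was common among all entries. After normalization LHB1B2 and PSBW were lower in psae2 at 6 of 6 numbers, as were 17.1% of entries, and PSBY was higher at 6 of 6, as were 18.4%. In the deposited intensities PSBY was again higher in psae2 at 6 of 6 numbers, as were 35.8% of entries, and PSBW lower at 6 of 6, as were 9.57%. LHB1B2 was there higher in psae2 at 2 of 6 numbers, 5 and 6, and PSAN at 5 of 6. The plot of differences by sample number shows LHB1B2 lower in psae2 at numbers 1 to 4 and higher at 5 and 6 in the deposited intensities only. At numbers 5 and 6 its log2 difference there was 0.08, below the median of 0.19 over all entries.

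**Figure D2:**
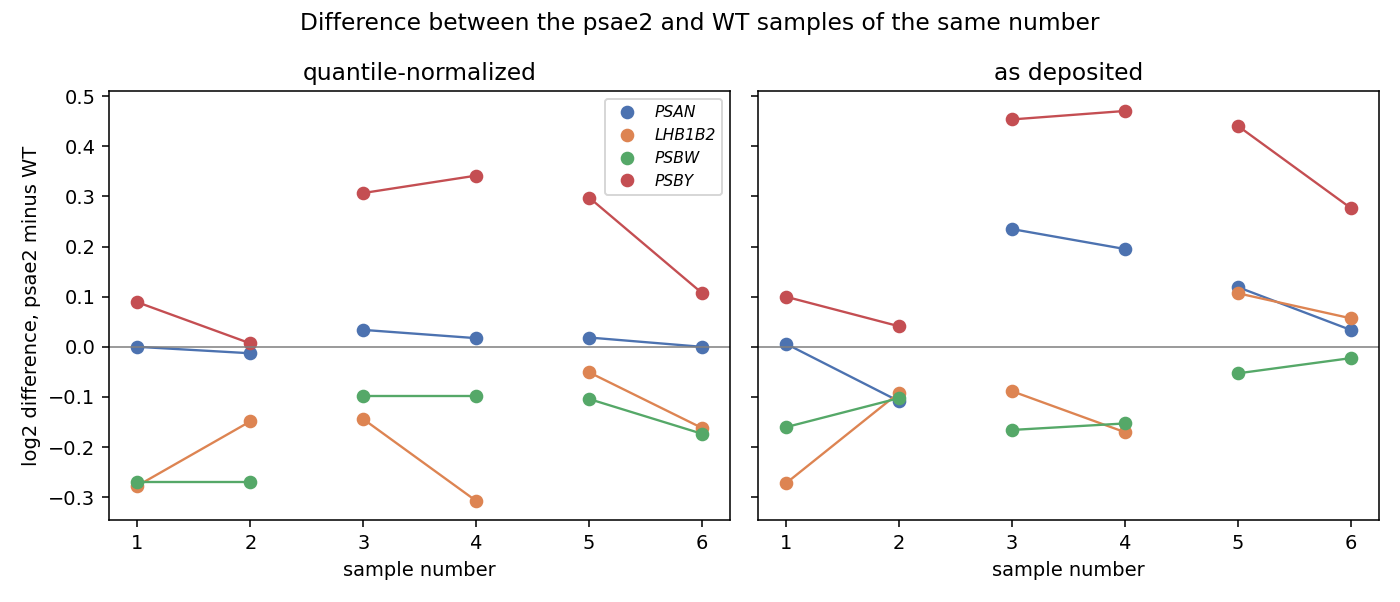
Log2 difference between the psae2 and the WT sample of the same number, after quantile normalization (left) and in the deposited intensities (right). Points are single differences, lines join the numbers of a pair, and the grey line marks no difference. PSBY lies above 0 and PSBW below 0 at all 6 numbers in both panels, and LHB1B2 is above 0 at numbers 5 and 6 in the deposited intensities.

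Within the pairs of numbers, the log2 difference of PSBY after normalization was 0.05 at numbers 1 and 2, 0.32 at 3 and 4 and 0.20 at 5 and 6. Its psae2 pair means were 1.35, 1.44 and 1.21 in that order, against 1.301, 1.11 and 1.01 in the WT. The WT level was thus highest at numbers 1 and 2, where the groups were nearly level, and the psae2 level at numbers 3 and 4. PSBW had differences of -0.27, -0.10 and -0.14 in the same order, and LHB1B2 had -0.21, -0.23 and -0.11. PSAN had -0.01, 0.03 and 0.01. Each value rests on 2 samples per group, and a difference between pairs was not tested, because the pairs were read from correlations in these data.

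PSAN varied more with the sample numbers than with genotype. Its normalized level at numbers 3 and 4 was 2.41 in psae2 and 2.38 in the WT. At numbers 1 and 2 it was 1.98 in psae2 and 1.99 in the WT, and at numbers 5 and 6 it was 1.96 in psae2 and 1.95 in the WT. Over both groups the pair means spanned 0.44, against a group difference of 0.01 after quantile normalization, 0.08 as deposited and -0.13 with centred arrays. This span was at least that of 67.8% of all entries. For LHB1B2 the span was 0.31, or 1.69 times the group difference, with the order from numbers 1 and 2 down to 5 and 6 in both groups. PSBY spanned 0.22, or 1.13 times. For PSBW alone of the 4 the span, 0.12, was smaller than the group difference (0.699 times), and it was among the narrowest 11% of entries. The span of PSBW depends on the normalization, which leaves it only 4 levels. Its standard error over 12 samples in limma was 0.061 after quantile normalization and 0.102 with centred arrays. The median span was 0.31 over all entries and 0.24 over the 164 bright ones.

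**Figure D3:**
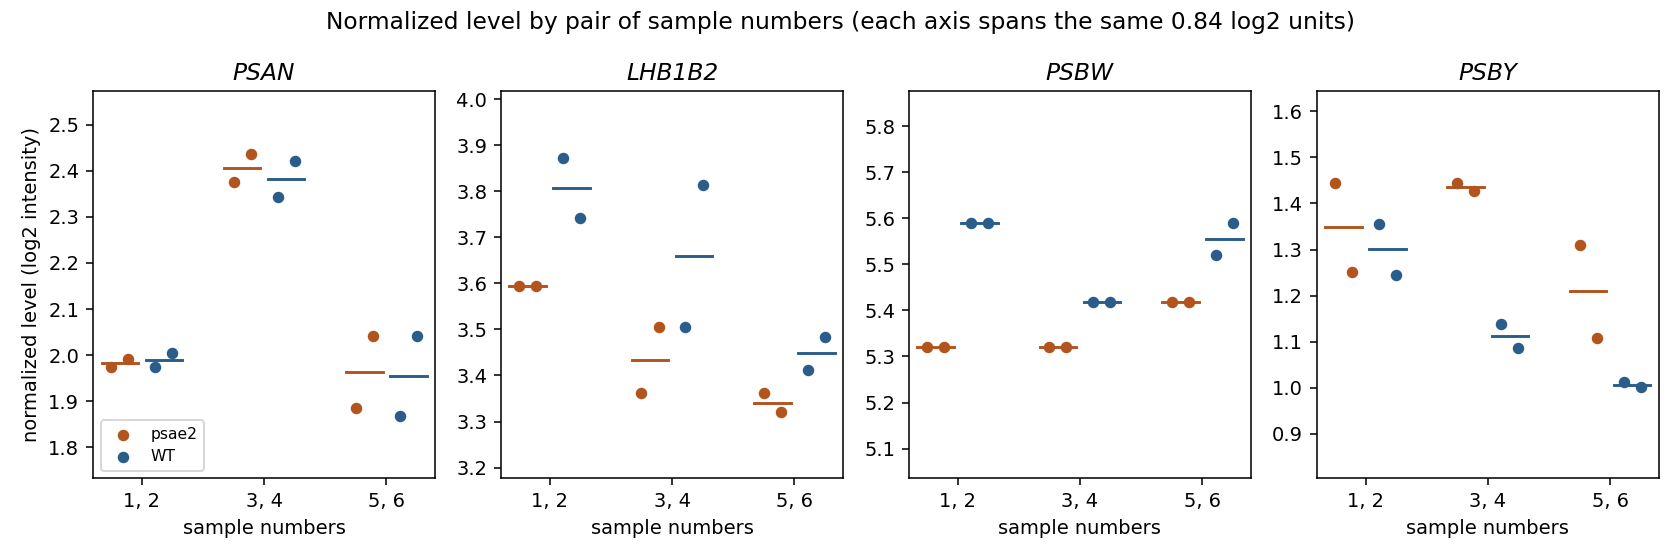
Normalized level (log2 intensity) of each gene at numbers 1 and 2, 3 and 4, and 5 and 6, with psae2 left of WT. Points are samples and horizontal lines are the means of 2 samples. PSAN stands highest at numbers 3 and 4 in both groups (2.41 in psae2 and 2.38 in the WT), and the 12 samples of PSBW share 4 levels.

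Each of the 4 differences moved with the way in which the arrays were put on a common scale. Over all entries the log2 difference had a median of 0.17 in the deposited intensities, 0.013 after quantile normalization and -0.03 with arrays centred on their medians. Of the entries that passed over 12 samples, 358 were higher and 313 lower in psae2 after quantile normalization. In the deposited intensities 711 were higher and 135 lower, and with centring 289 were higher and 418 lower. PSAN had a log2 difference of 0.08 as deposited and -0.13 when centred. LHB1B2 had -0.08 as deposited and -0.28 when centred (limma over 12 samples, adjusted p = 0.748 and 0.0537). PSBW had -0.11 as deposited and -0.32 when centred (adjusted p = 0.257 and 0.0410), and the second of these passed the threshold, where 23.5% of entries did. With pairs averaged on the centred values its adjusted p was 0.326. PSBY had 0.30 as deposited and 0.09 when centred (adjusted p = 0.0849 and 0.479). In the deposited intensities 0 of 4 genes passed, where 28.1% of entries did. Set against the median shift of the deposited values, the differences were -0.09 for PSAN, -0.25 for LHB1B2, -0.28 for PSBW and 0.12 for PSBY. Under these 3 scalings LHB1B2 and PSBW were lower in psae2 and PSBY was higher, while PSAN changed sign.

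**Figure D4:**
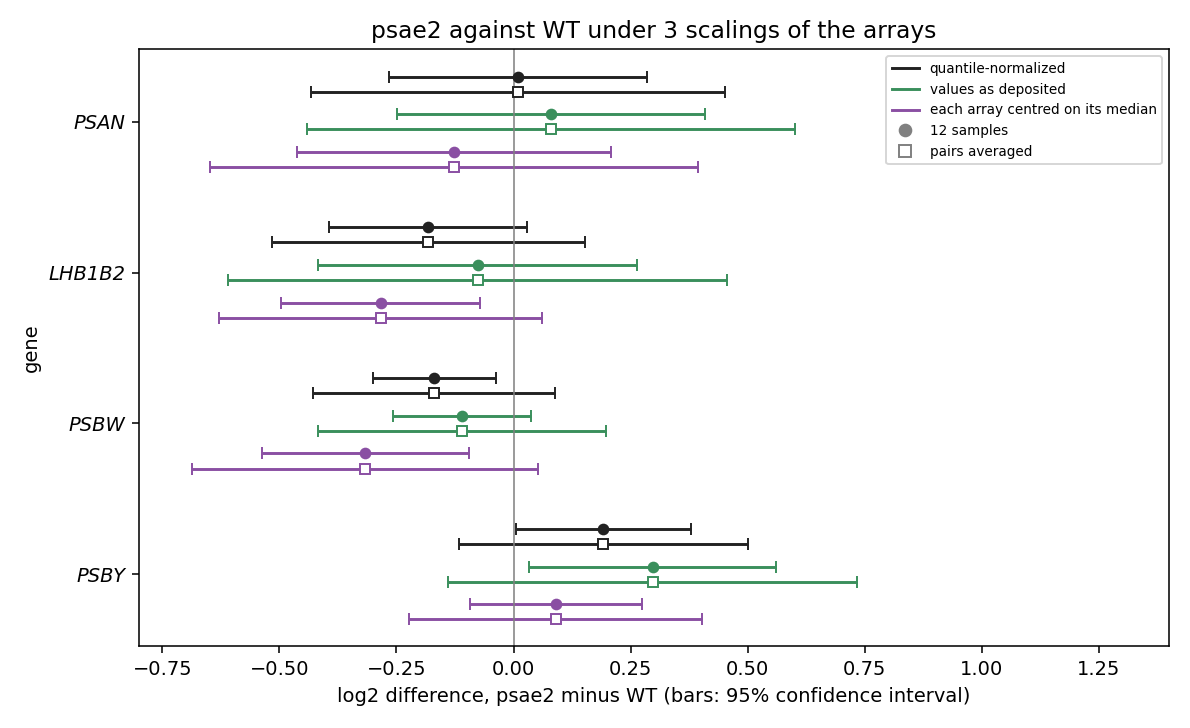
Log2 difference, psae2 minus WT, of each gene with its 95% confidence interval from limma, for quantile-normalized values, values as deposited and arrays centred on their medians. Filled circles are fits over 12 samples and open squares fits with pairs averaged (3 values per group). All 12 intervals with pairs averaged include 0.

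A ratio of 2 probes on the same array does not depend on a single factor that scales the whole array. The change of one gene relative to another was therefore also followed in the deposited intensities. An array effect that differs between bright and dim probes would not cancel, and such effects were not tested. As deposited, the log2 differences ran in order of brightness, from the dimmest gene to the brightest. They were 0.30 for PSBY, 0.08 for PSAN, -0.08 for LHB1B2 and -0.11 for PSBW. Each ratio below sets a dimmer probe over a brighter one, and the ratios of PSBY share that probe. They are thus not separate results, and a change of the genes cannot be told apart from such an effect. The log2 ratio of PSBY to PSBW was higher in psae2 by 0.41, or 1.33-fold. It was higher at 6 of 6 numbers, by 0.14 to 0.62, and 3 of 6 psae2 samples exceeded the highest WT sample. The ratio of PSBY to LHB1B2 was higher by 0.37, again at 6 of 6 numbers, with 5 of 6 psae2 samples above the highest WT sample. Relative to PSAN, PSBY was higher by 0.22 at 6 of 6 numbers, and by 0.14 without WT sample 4. The SD of the 3 differences between pairs of numbers was 0.21 for PSBY to PSBW, 0.19 for PSBY to LHB1B2 and 0.08 for PSBY to PSAN. For these ratios of PSBY it was smaller than the difference. The ratio of PSAN to PSBW was higher in psae2 by 0.19 (SD 0.16), at 5 of 6 numbers. For PSAN to LHB1B2 the difference was 0.16 (SD 0.18), higher at 4 of 6 numbers. The ratio of LHB1B2 to PSBW differed by 0.03 (SD 0.085), and was higher in psae2 at 4 of 6 numbers. For PSAN to LHB1B2 and LHB1B2 to PSBW the SD thus exceeded the difference. The groups overlapped in all 6 ratios, and no test was made of them. As deposited, PSBY was higher and PSBW lower at 6 of 6 numbers, so their ratio had to be higher at all 6. Among single entries 35.8% were higher and 9.57% lower in psae2 at all 6 numbers. How often ratios of other probes do the same was not counted, so these counts do not set the 4 genes apart. At numbers 1 and 2 the ratio of PSBY to PSBW differed by 0.20, at 3 and 4 by 0.62 and at 5 and 6 by 0.40.

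The 4 genes did not rise and fall together across the 12 samples. Of their 6 pairings the highest Pearson correlation of normalized levels was 0.353, between LHB1B2 and PSBW, and the lowest -0.512, between PSBW and PSBY. When the 525 other genes with a probe of their own above the floor on every array were ordered by correlation with a member, the other members came between the 121st and the 467th place. These correlations describe 12 samples that share sample numbers and genotype, so they carry no p-value.

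The genes most like each member in normalized level were other genes, and most of these choices depended on the scaling. Of the 12 named here, 4 were again among the 3 most like in the deposited intensities and 2 with centred arrays. For PSAN they were AT5G19540 (Pearson correlation over 12 samples 0.792), AT1G16080 (0.736) and AT4G31530 (0.720). AT4G31530 came 93rd in the deposited intensities (0.366). Like PSAN, all 3 were highest at numbers 3 and 4. The choice by correlation over the same samples favours such a shared pattern, here and for the genes that follow, so it is no separate result. For LHB1B2 they were AT4G04370 (0.870), AT2G26680 (0.822) and AT3G20490 (0.807), and their levels followed the order of LHB1B2, from numbers 1 and 2 down to 5 and 6. AT4G04370 was also first in the deposited intensities (0.961) and with centred arrays (0.927). For PSBY they were AT1G07970 (0.837), AT1G74470 (0.818), known as CHLP, a reductase that makes the phytyl tail of chlorophyll, and AT1G32520 (0.816). For PSBW they were AT3G52070 (0.874), AT5G52810 (0.853) and AT3G09250 (0.851), on the 4 levels that PSBW takes after normalization. With centred arrays these came 33rd, 43rd and 92nd of 525, and as deposited 4th, 5th and 26th. AT3G09250 followed PSBW within the WT samples (0.9) but ran opposite to it within psae2 (-0.906), where PSBW took only 2 levels. Its likeness over 12 samples therefore did not hold within psae2. AT3G52070 and AT5G52810 correlated positively with PSBW within psae2 (0.821 and 0.803) and within the WT (0.541 and 0.748). These values too rest on the 2 levels of PSBW in psae2 and on 3 in the WT. In limma AT3G52070 and AT5G52810 were lower in psae2 over 12 samples (log2 differences of -1.10 and -1.82, adjusted p = 0.000125 and 4.43e-07) and with pairs averaged (adjusted p = 0.0455 and 0.0160), while PSBW passed neither fit. AT3G09250 was lower in psae2 over 12 samples (log2 difference of -0.52, limma, adjusted p = 0.000344) and did not pass with pairs averaged (0.0845). Over all entries 22.3% passed over 12 samples and 2.63% with pairs averaged. PSBW averaged lower in psae2, so the choice by likeness to it favours genes lower in psae2. The differences of these 3 genes are therefore no separate result.

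The rest of the light reactions was hardly covered. Of 96 loci in lists of photosystem I and II subunits, their antennae, electron transport and the chloroplast ATP synthase, 5 had a probe of their own, which were the 4 genes above and PSB27. PSB27, a lumenal assembly factor of photosystem II, had a log2 difference of -0.17 (95% interval -1.14 to 0.79 over 12 samples; limma, adjusted p = 0.819 and, with pairs averaged, 0.841). Its interval over 12 samples was several times wider than those of the 4 genes: the deposited intensity ran from 0.730 to 3.07 in psae2 and from 0.701 to 2.56 in the WT. Much of this spread went with the sample number in both groups. At number 1 the intensity was 3.07 in psae2 and 2.56 in the WT, and at number 2 it was 0.815 and 0.703. With a block for the replicate number the standard error fell from 0.444 to 0.121 (limma, adjusted p = 0.304). None of the 17 electron transport loci, the 6 photosystem I antenna loci or the 10 ATP synthase loci had a probe of its own. The same held for lists of root (8 loci), flower and seed (10) and senescence genes (8), so the tissue behind the RNA was not checked.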

How the data were processed

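Total RNA was measured in 6 psae2 and 6 WT samples, grouped by their titles. The intensity values are those deposited by the authors. The labels state neither a background correction nor a scaling, nor the kind of array. Values ran from 0 to 100.0, and 11.9% to 13.7% of an array were exactly 0. Of 3439 probes, the platform annotation lists 1 gene for 692, several for 870 and none for 1877. Names follow the reference table (assembly TAIR10.1; 690 matched), and no coordinates were used. Values below the floor (0.0638 to 0.105) were raised to it, log2-transformed and quantile-normalized. The 429 probes that never exceeded the floor were left out and probes of 1 gene averaged, leaving 3009 entries. Differences were tested over all entries with limma 3.58.1 in R 4.3.3 (lmFit, eBayes, two-sided, Benjamini-Hochberg, threshold 0.05, 12 samples, no covariates), which was tested on simulated data. Figures used matplotlib 3.10.9.

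Same-number samples correlated at 0.345 to 0.535 in their deviations from group means, and 12 of 12 samples correlated best with their own number in the other group. The numbers therefore pair the samples, as read from the data and not from the labels. Alternatives changed scaling, the treatment of low values, the filter, the variance model, blocks and the samples used. Named genes are the 4 members, list genes with a probe of their own, and for each member the 3 of 525 candidates with the highest Pearson correlation. The members and lists were chosen with earlier results of these data known.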

Additional observations from a re-analysis of the deposited data

Results flagged for a closer look

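Probe 4337, which lists both genes for the gamma subunit of the chloroplast ATP synthase (ATPC1 and ATPC2) and so was not used above, was brighter in all 6 psae2 samples (deposited intensity 0.862 to 0.999, median 0.903) than in any WT sample (0.673 to 0.817, median 0.738). After quantile normalization its log2 difference was 0.20, higher at 6 of 6 numbers (limma over 12 samples, adjusted p = 0.0730, and 0.423 after averaging pairs). It was 0.32 as deposited (adjusted p = 0.00848) and 0.12 with arrays centred on their medians (adjusted p = 0.374), while the median over all entries was 0.17 as deposited. In the deposited intensities 28.1% of entries passed, and psae2 was higher at all 6 numbers for 35.8%. How many entries separated the groups there was not counted. By rank within the array the groups overlapped, at percentiles 78.5 to 85.3 in psae2 and 75.0 to 78.8 in the WT. In 10 sets of 6 samples, those of the 4 genes and PSB27 in each group, no sample exceeded the limit of Dixon's ratio. For PSBW the ratio was 0 in both groups because its normalized values tie, so it could not flag a sample. In the other sets an outlying sample can be hidden by a like sample of its pair of numbers.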

How the results depend on the processing

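Of 30 alternatives, LHB1B2 and PSBW stayed lower in psae2 and PSBY higher in all 30, with log2 differences of -0.28 to -0.08, -0.32 to -0.11 and 0.09 to 0.30. Blocks, averaged pairs and the variance model cannot move these values in a balanced design. PSAN turned to -0.13 with arrays centred on their medians (also with the replicate block or averaged pairs), and ran from -0.053 to 0.0728 with 1 sample left out. PSB27 ran from -0.42 to 0.0225 with 1 sample left out, and turned positive without psae2 sample 2 or 6. The ratio of LHB1B2 to PSBW turned to -0.0102 with numbers 5 and 6 left out and ran from -0.0466 to 0.119 with 1 sample left out. PSBW differed by -0.24 without numbers 3 and 4 and by -0.11 without 1 and 2, and PSBY by 0.12 without 3 and 4 and by 0.27 without 1 and 2. The cause was not tested.

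The count of the 4 genes that passed in limma, 0, became 1 with centred arrays, without the filter on dim probes (adjusted p = 0.0140) and with trend and robust eBayes (0.0340), PSBW each time. It became 2 with the replicate block (LHB1B2 and PSBW), which changed no other call of the 4 genes or PSB27, 2 with the block on centred arrays (0.0203 and 0.00474) and 1 with the block on deposited values (PSBY, 0.0199). It was 0 in the other alternatives, among them all 12 that left out 1 sample. The count over all entries, 671, became 1010 with the replicate block, 1015 with it on centred arrays, 1396 with it on deposited values, 79 with pairs averaged, 60 and 29 with pairs averaged on centred and on deposited values, 44 with the averaged pair as a block, 181 with the pair as a random block and 284 without numbers 3 and 4. With 1 sample left out it was 552 to 668. Scaling combined with blocks or averaged pairs was chosen after seeing the data.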

Other observations

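A further probe, 3446, lists the 3 genes of the minor photosystem II antenna protein CP29, LHCB4.1, LHCB4.2 and LHCB4.3, and was looked up after the values of the 4 genes were seen. Its deposited intensity had a lowest value of 0.326, a median of 0.347 and a highest value of 0.389 in psae2, against 0.370, 0.473 and 0.580 in the WT. Only WT sample 4 lay within the psae2 range. On the normalized scale it averaged -1.61 in psae2 and -0.97 in the WT, a log2 difference of -0.64, lower at 6 of 6 numbers (-0.73, -0.36 and -0.82 in the pairs of numbers). Of all entries, 17.1% were lower at 6 of 6 numbers. It passed in limma over 12 samples (adjusted p = 0.00281), as did 22.3% of entries, and not with pairs averaged (0.101), where 2.63% did. The difference was -0.45 as deposited (adjusted p = 0.00964) and -0.66 with arrays centred on their medians (0.00248). On these scales 28.1% and 23.5% of entries passed. The signal lay between percentiles 40.1 and 51.1 of all probes in psae2 and between percentiles 54.0 and 74.2 in the WT. After normalization psae2 lay wholly below the WT for 5.88% of entries. Which of the 3 genes it stems from cannot be told apart.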
